A study of Mus musculus with 4 samples.

Results

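The genes described here are 9 members of the Wnt pathway, taken by symbol from the 32285 genes counted in single cells of mouse ovary. They are the ligands Wnt4 and Wnt5a, the ligand amplifier Rspo1, the receptors Lgr5 and Fzd1, the secreted inhibitors Sfrp1 and Sfrp4, and the pathway's target Axin2 and nuclear mediator Lef1. All 9 were found in the files.

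Treatment of prepubertal mice began on postnatal day 25 with 2 weekly doses of doxorubicin, and the second preceded collection of the ovaries by 4 hours. There were 4 groups with 1 library each: a PBS/saline control, doxorubicin (3 mg/kg), both agents (doxorubicin+AMH, 3 and 0.75 mg/kg) and AMH alone (0.75 mg/kg). The series' title asks whether AMH protects the ovary from doxorubicin. Doxorubicin is an anthracycline drug that damages DNA, and AMH is anti-Müllerian hormone, here the recombinant human protein, which granulosa cells of growing follicles normally secrete. Each library pooled 1 ovary from each of 5 animals, which leaves no measure of the spread between animals, and no test between groups is possible; every difference below compares libraries, not treatments. The mouse strain and the route of dosing are not given in the sources used here, and the labels name no genetic modification.

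Wnt proteins are secreted ligands that bind Frizzled receptors. In the canonical branch they stabilise beta-catenin, which then activates genes together with TCF/LEF factors such as Lef1. R-spondins bind Lgr receptors and keep Frizzled receptors at the cell surface, while Sfrp proteins bind Wnt ligands outside the cell. In the ovary, Wnt4 and Rspo1 are known for female gonad development, and Lgr5 is known to mark cells of the ovarian surface epithelium.

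The deposited libraries held 7141 to 9478 cells and 138647495 to 178279122 UMIs (molecular tags that count each captured transcript once), with median depths of 9834.5 to 13575 UMIs per cell. Between 11 and 24 cell barcodes were shared by any pair of libraries, at most 0.281% of the smaller one. After filtering, 28451 cells fell into 32 clusters, which were named "-like" from fixed marker genes. Levels are given in CPM, the UMIs of a gene per 1000000 UMIs of the cells summed, always listed as control, doxorubicin, doxorubicin+AMH, AMH. Oviduct-type epithelial-like cells numbered 145, 1, 49 and 238, and this is given again where it moves with a value. Levels of different genes are not compared with each other.

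A ratio between libraries was computed in the 6 cell classes that had 50 or more cells in every library, for genes averaging 20 CPM or more across the 4 libraries. These classes were granulosa-like, theca/luteal-like, stroma-like, mural smooth muscle-like, blood endothelial-like and macrophage-like cells. Over the 9 genes and 6 classes, 13 gene and class pairs passed that filter: Wnt4 in 4 classes, Wnt5a and Sfrp1 in 3 each, Fzd1 in 2 and Lef1 in 1. Rspo1, Lgr5, Sfrp4 and Axin2 did not pass in any of the 6 classes.

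Of the 13 pairs, 0 differed by 2-fold or more for doxorubicin over control, where 0.871% of all gene and class pairs did so, and 0 for doxorubicin+AMH over AMH, where 1.1% of all pairs did so. For AMH over control 2 pairs were at least 2-fold lower, Wnt5a and Sfrp1 in theca/luteal-like cells, against 1.88% of all pairs past that size in either direction. The Sfrp1 pair did not reach 2-fold with a pseudocount of 5 CPM (-0.94) or with a direct marker gate (-0.83). For doxorubicin+AMH over doxorubicin 2 pairs were at least 2-fold lower, Wnt4 in granulosa-like cells and Wnt5a in theca/luteal-like cells, against 2.42% of all pairs. With a filter of 5 CPM in place of 20 CPM, 3 and 2 of 27 pairs passed in the contrasts of doxorubicin (2.79% and 3.27% of all pairs) and 3 and 3 in those of AMH (3.63% and 5.19% of all pairs). The pairs of one gene in several classes come from the same libraries and are not independent of each other.

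**Figure D1:**
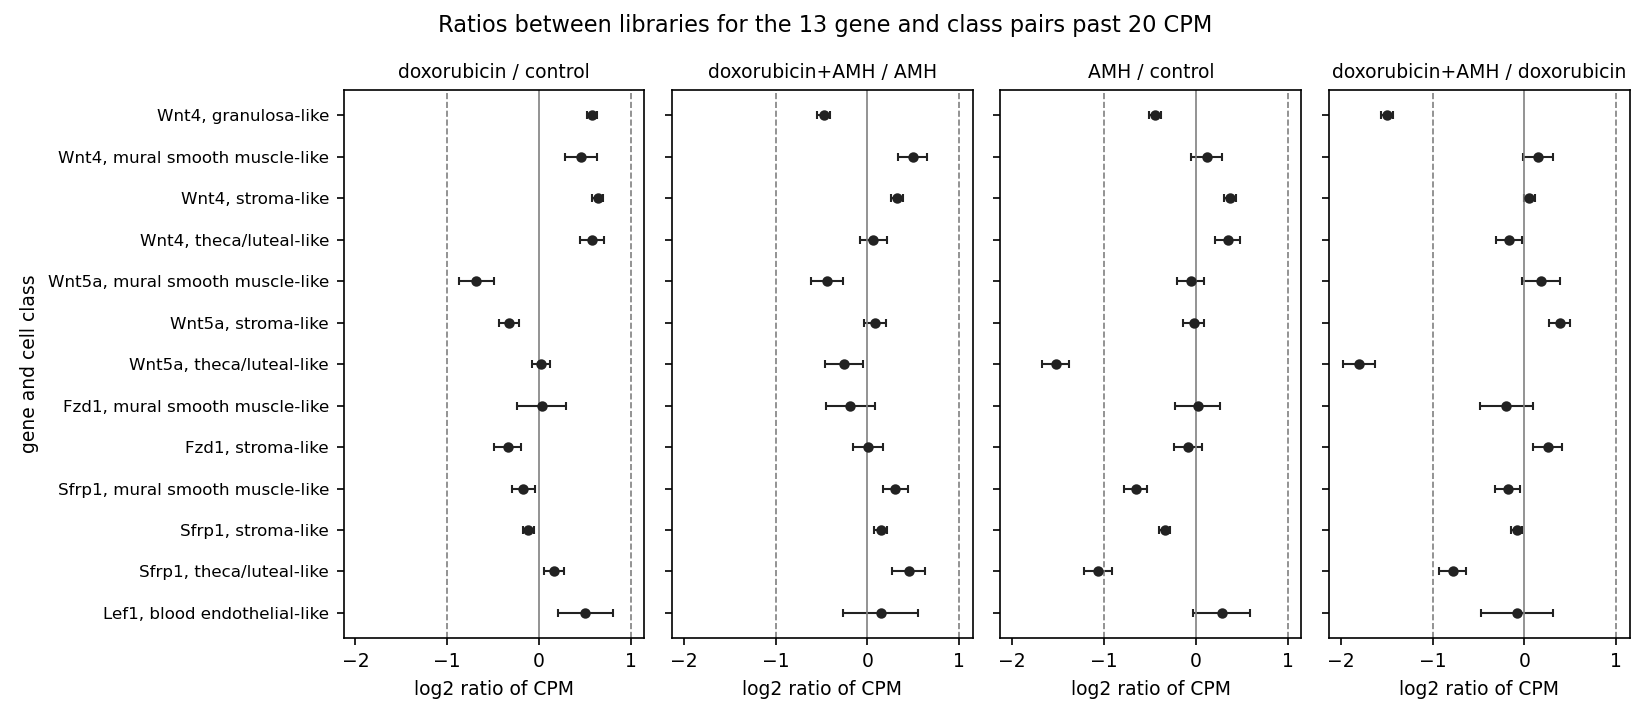
Log2 ratios of CPM between libraries for the 13 gene and class pairs averaging 20 CPM or more, one panel per contrast; points are the ratios, bars the exact 95% intervals from counting error only, and dashed lines mark 2-fold. The pairs beyond the dashed lines are Wnt5a and Sfrp1 in theca/luteal-like cells (AMH / control) and Wnt4 in granulosa-like and Wnt5a in theca/luteal-like cells (doxorubicin+AMH / doxorubicin).

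The map of levels by class and library shows that the 9 genes were spread unevenly over the cell classes. By the median of the 4 libraries, Wnt4, Rspo1, Lgr5 and Axin2 were highest in surface epithelial-like cells. By the same measure Fzd1 and Sfrp1 were highest in stroma-like cells, followed by mural smooth muscle-like cells. Lef1 was seen mainly in blood endothelial-like cells, in surface epithelial-like cells and in T or NK lymphocyte-like cells.

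**Figure D2:**
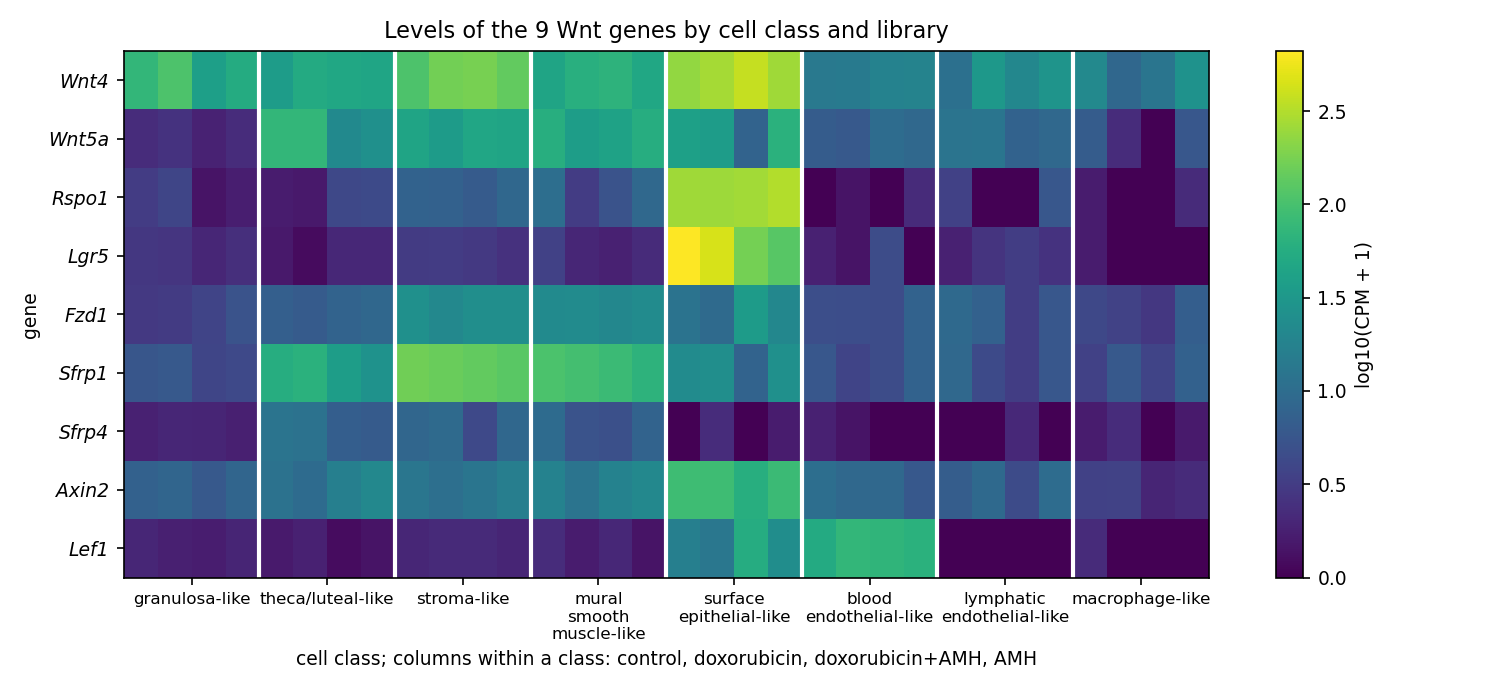
Levels of the 9 genes as log10(CPM + 1) in 8 cell classes, with 4 columns per class for control, doxorubicin, doxorubicin+AMH, AMH. Lgr5 and Rspo1 are brightest in surface epithelial-like cells, Lgr5 there going from 666 CPM in control to 121 CPM in AMH.

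Wnt4 lies on chromosome 4 from 137277489 to 137299726 on the plus strand (mm10) and encodes a secreted ligand with roles in female gonad development and in follicle growth. Its level in surface epithelial-like cells was 229, 279, 374 and 265 CPM. In stroma-like cells it was 107, 167, 173 and 139 CPM. In granulosa-like cells, the follicle's somatic cells, it was 72.2, 108, 38.1 and 53.0 CPM. These 3 classes stood in that order in each library, with the surface epithelial-like level above the stroma-like level, and the stroma-like level above the granulosa-like level. Mural smooth muscle-like cells had 43.7, 60.1, 66.7 and 47.4 CPM of Wnt4. Theca/luteal-like cells, the steroid-making cells around follicles, had 35.5, 52.9, 47.1 and 45.0 CPM. Wnt4 was also counted in classes not known for it. It was 20.5, 7.78, 11.4 and 26.4 CPM in macrophage-like cells and 24.05, 7.41, 15.2 and 27.2 CPM in erythroid-like cells, lowest in doxorubicin in both. In lymphatic endothelial-like cells it was 9.96, 31.3, 19.2 and 28.3 CPM, with doxorubicin highest. In blood endothelial-like cells it was 12.8, 13.7, 16.9 and 17.5 CPM, with control lowest. This background differed between libraries, in an order that depended on the class. The levels in surface epithelial-like, stroma-like, granulosa-like, mural smooth muscle-like and theca/luteal-like cells were higher than the macrophage-like level in each library. T or NK lymphocyte-like cells had 7.93, 0, 28.1 and 59.5 CPM of Wnt4, from 66, 26, 63 and 46 cells. In AMH their level, from 22 UMIs, was above those of granulosa-like, mural smooth muscle-like and theca/luteal-like cells. The mural smooth muscle-like level was above the theca/luteal-like level in each library, while granulosa-like cells were above both in control, doxorubicin and AMH and below both in doxorubicin+AMH.

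In stroma-like, mural smooth muscle-like and theca/luteal-like cells the control library had the lowest level of Wnt4 of the 4. In mural smooth muscle-like cells this did not hold against AMH with equal cell weights (-0.05) or with doublets left in (-0.01). The doxorubicin library was above control by a log2 ratio of 0.64 (interval 0.58 to 0.70), 0.46 (0.29 to 0.63) and 0.58 (0.45 to 0.71) in these classes. Doxorubicin+AMH over AMH gave 0.32 (0.26 to 0.39), 0.49 (0.33 to 0.65) and 0.06 (-0.08 to 0.21) in the same order of classes. The last of these intervals spans 0. Intervals here and below are 95% and cover counting error only.

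Within the stroma-like class, Wnt4 was highest in a cluster led by Kcnk2 and Frem1 (cluster 1), at 262, 499.8, 439 and 345 CPM. There the log2 ratio was 0.93 for doxorubicin over control (0.85 to 1.02) and 0.35 for doxorubicin+AMH over AMH (0.26 to 0.43). Both libraries with doxorubicin lay above both without it. The median cell held 2, 4, 3 and 2 UMIs of Wnt4 at median depths of 7204, 8970, 7518 and 6559 UMIs, which were also higher with doxorubicin. After thinning each cell to 2000 UMIs, 36.2%, 56.1%, 52.2% and 46.1% of cells had a Wnt4 UMI, with 20, 16, 20 and 18 cells too shallow. The same share was 6.99%, 1.52%, 4.29% and 5.52% in macrophage-like cells, with 47, 29, 27 and 43 too shallow and median depths of 7232.5, 6013, 7136 and 6512 UMIs. Cluster 0, the stroma-like cluster with most cells, had 96.5, 123, 132 and 120.5 CPM, with control lowest. A cluster led by Dpt and Clec3b (cluster 12, called the Clec3b cluster below) had another order, 131, 219, 89.3 and 71.7 CPM.

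In granulosa-like cells Wnt4 went in opposite directions in the pair of doxorubicin contrasts. It was 72.2 CPM in control and 108 CPM in doxorubicin, a log2 ratio of 0.57 (0.52 to 0.63). It was 53.0 CPM in AMH and 38.1 CPM in doxorubicin+AMH, a log2 ratio of -0.48 (-0.55 to -0.40). Doxorubicin therefore had the highest level and doxorubicin+AMH the lowest, with a ratio of -1.50 (-1.56 to -1.43), while AMH over control was -0.44 (-0.51 to -0.38). The macrophage-like level of Wnt4 was also lower in doxorubicin+AMH (11.4 CPM) than in AMH (26.4 CPM). Between doxorubicin (7.78 CPM) and control (20.5 CPM) it ran opposite to the granulosa-like level. The part of this background was not tested. Among all genes tested in granulosa-like cells, differences of 2-fold or more made up 0.0454% for doxorubicin over control, 0.0756% for doxorubicin+AMH over AMH, 0.665% for AMH over control and 0.831% for doxorubicin+AMH over doxorubicin.

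The mix of granulosa-like clusters also differed between libraries, and its part in these values was not tested beyond leaving out 2 clusters. Wnt4 was high in a cluster led by Cntn4, Slc18a2 and Amh (cluster 10), at 229, 329.8, 202 and 286 CPM, and that cluster had 356, 306, 157 and 240 cells. Another cluster, led by Amh and Wfdc10 (cluster 30), had 546 CPM of Wnt4 and 76 cells in the doxorubicin library and at most 2 cells in any other. Cluster 26, led by Cntn4, had 195 CPM and 177 cells in the doxorubicin library and at most 1 elsewhere. Without clusters 26 and 30 the class ratio was 0.47 for doxorubicin over control and -1.39 for doxorubicin+AMH over doxorubicin. The Amh gene that leads clusters 10 and 30 encodes the mouse's own anti-Müllerian hormone.

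The granulosa-like clusters differed in how far Wnt4 separated the libraries. In cluster 3, led by Kcnq5 and Nr5a2, Wnt4 was 39.98, 37.4, 39.2 and 42.3 CPM, and each interval of its 4 ratios spanned 0. In cluster 10 doxorubicin over control was 0.53 (0.46 to 0.59), doxorubicin+AMH over AMH was -0.50 (-0.62 to -0.39), AMH over control was 0.32 (0.24 to 0.41) and doxorubicin+AMH over doxorubicin was -0.71 (-0.81 to -0.61). AMH over control in cluster 10 had the opposite sign to the whole class (-0.44) in summed counts, but with each cell given equal weight it was -0.05. In the clusters led by Inhba and Inhbb (cluster 6) and by Fst and Nap1l5 (cluster 7), markers of growing follicles, Wnt4 was 30.1, 42.1, 22.4 and 27.8 CPM and 18.9, 32.8, 14.9 and 20.3 CPM. In cluster 7 the control and AMH levels were at or under the macrophage-like level of the same library and are read as background. The doxorubicin+AMH level there (14.9 CPM) lay within the macrophage-like interval of that library (5.88 to 19.9 CPM). In cluster 6 the AMH level was close to the macrophage-like level. In clusters 6 and 7 the doxorubicin library was highest and doxorubicin+AMH lowest. The macrophage-like level was itself 26.4 CPM in AMH and 11.4 CPM in doxorubicin+AMH, so the lowest place of doxorubicin+AMH is not read as a result. Cluster 14, led by Hsd17b1 and Inha, had 14.98, 52.4, 60.6 and 48.2 CPM, with control lowest from 5 UMIs and under the macrophage-like level. There AMH over control was 1.69 (0.39 to 3.36), against the sign of the class, and doxorubicin over control was 1.81 (0.41 to 3.54). Of all genes tested in cluster 14, 14.6% and 11.7% differed by 2-fold or more in these contrasts. Its median depths were 3663, 1628.5, 2241 and 7387 UMIs. Markers of granulosa cells summed to 2349.66, 2329.53, 2449.09 and 1985.2 CPM in cluster 10, and theca markers to 409, 336, 112 and 101 CPM; their part in the Wnt4 values was not tested.

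**Figure D3:**
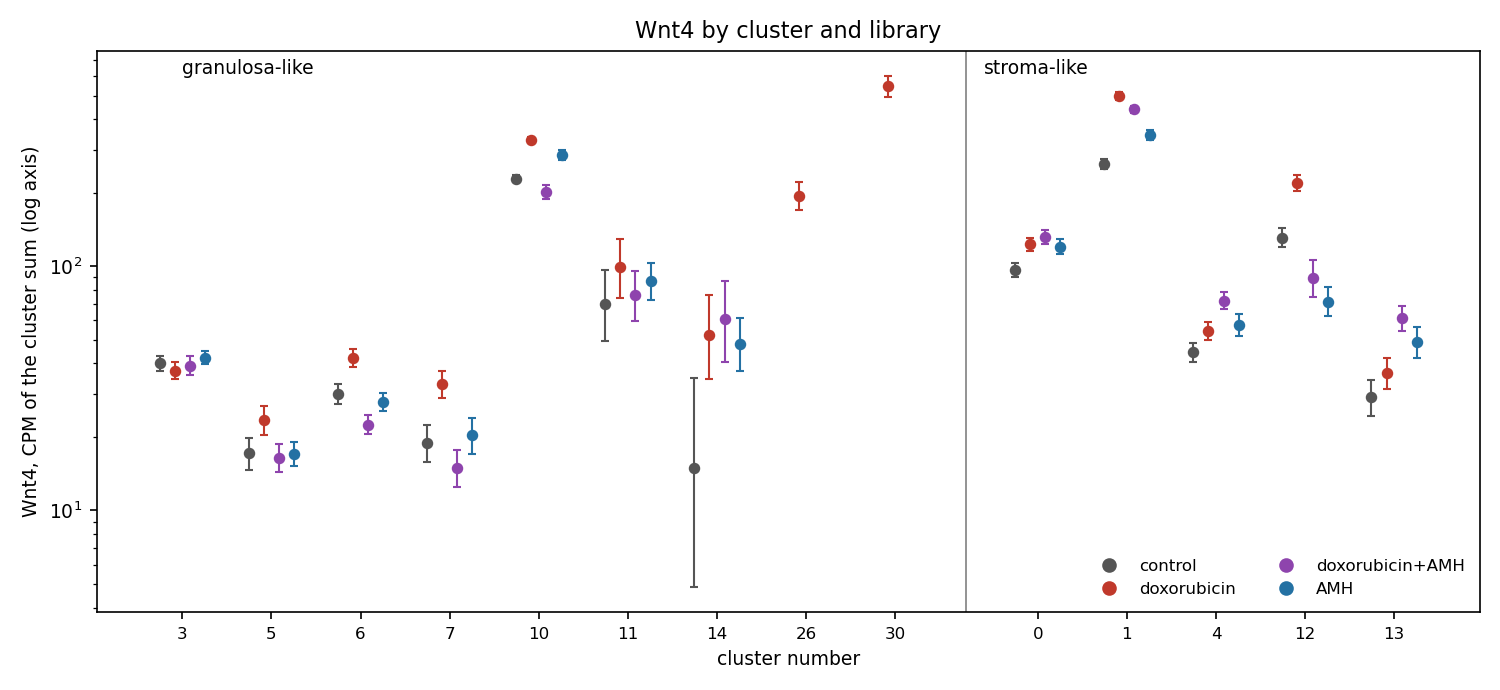
Wnt4 in CPM (log axis) for each granulosa-like and stroma-like cluster and library, for libraries with at least 30 cells in the cluster; bars are exact 95% Poisson intervals. Clusters 26 and 30 have a point for doxorubicin alone, and cluster 1 lies between 262 and 499.8 CPM.

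Wnt5a, on chromosome 14 from 28504750 to 28527448 on the plus strand, encodes a ligand known mainly for signalling that does not use beta-catenin. Its level was 72.7, 73.8, 21.2 and 25.2 CPM in theca/luteal-like cells. It was 43.8, 34.9, 45.5 and 43.1 CPM in stroma-like cells and 58.3, 36.4, 41.2 and 56.0 CPM in mural smooth muscle-like cells. In granulosa-like cells Wnt5a stayed between 0.858 and 1.59 CPM, far below the stromal classes.

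In theca/luteal-like cells both libraries with AMH lay below both without it. The log2 ratio was -1.53 for AMH over control (-1.68 to -1.38) and -1.80 for doxorubicin+AMH over doxorubicin (-1.98 to -1.63). Doxorubicin over control was 0.02 (-0.08 to 0.12), and doxorubicin+AMH over AMH was -0.26 (-0.46 to -0.05), or 0.01 with each cell given equal weight. In that class 6.65% of all genes tested differed by 2-fold or more for AMH over control, 6.53% for doxorubicin+AMH over doxorubicin, 0.176% for doxorubicin over control and 0.176% for doxorubicin+AMH over AMH.

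Different clusters held most of the theca/luteal-like cells in the 4 libraries. Cluster 9, led by Cyp17a1 and Cyp11a1, enzymes of androgen and steroid synthesis, had 686, 435, 62 and 58 cells. Cluster 8, led by Prss35 and Lhcgr, had 32, 19, 531 and 717 cells. The theca markers summed to 10326, 9937.17, 3027.6 and 2647.39 CPM over the class, so the class differed in more than the Wnt genes, and its name rests on marker lists that share Star and Hsd3b1. Stroma markers summed to 390.5, 416, 918 and 889 CPM there. The part of either list in the Wnt5a values was not tested.

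Within cluster 9 Wnt5a was 80.9, 84.3, 46.3 and 48.5 CPM, again with both AMH libraries below the others. The ratios there were -0.74 for AMH over control (-1.07 to -0.42) and -0.86 for doxorubicin+AMH over doxorubicin (-1.25 to -0.50), both nearer to 0 than the ratios of the whole class. The theca markers in cluster 9 summed to 11325, 10967.4, 7950.24 and 6650.0 CPM, also lower in the AMH libraries, and their part was not tested. In cluster 8 the level was 22.8, 11.1, 20.9 and 23.6 CPM, from 7, 3, 220 and 304 UMIs. In cluster 16, which Cyp17a1 and Enpep led, it was 17.0, 13.1, 13.04 and 19.2 CPM. Cluster 16 did not separate the libraries with AMH from those without it. Cluster 8 cannot decide this, with 32 cells in control and 19 in doxorubicin.

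In stroma-like cells the level of Wnt5a was lowest in doxorubicin, with a log2 ratio to control of -0.33 (-0.44 to -0.22). The Clec3b cluster carried the largest difference within the class, with 68.3, 19.3, 101 and 63.3 CPM. The doxorubicin library stood apart from the other three there, from 61 UMIs in 198 cells, against 254, 154 and 190 UMIs in the others. The ratios were -1.82 for doxorubicin over control (-2.25 to -1.41) and 2.39 for doxorubicin+AMH over doxorubicin (1.95 to 2.84). Oviduct-type epithelial-like cells (145, 1, 49 and 238) were also fewest in doxorubicin, and their part was not tested.

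In mural smooth muscle-like cells the values of Wnt5a changed when 1 cluster was left out. A cluster led by Des (cluster 15), which encodes the muscle protein desmin, had 205, 19, 57 and 180 cells and 127, 58.9, 24.0 and 153 CPM. Without it, doxorubicin over control moved from -0.68 to -0.13, and doxorubicin+AMH over AMH turned from -0.44 to 0.42. Cluster 15 had fewest cells in the libraries with fewest oviduct-type epithelial-like cells (145, 1, 49 and 238), and the part of either in the Wnt5a values beyond this was not tested.

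Rspo1, on chromosome 4 from 124986430 to 125009099 on the plus strand, encodes R-spondin 1, a secreted amplifier of Wnt signals. In surface epithelial-like cells its level was 261, 256, 271 and 312 CPM. The largest log2 ratio there was 0.26 for AMH over control (0.10 to 0.42), and the ratio was -0.03 for doxorubicin over control (-0.17 to 0.11). In the Clec3b cluster Rspo1 was 49.7, 48.1, 61.7 and 50.7 CPM, and all 4 ratios had intervals that span 0. In each of the 6 larger classes it was below 10 CPM in every library. The level of Rspo1 in the surface epithelium thus differed little between libraries, in cells where that of Lgr5 differed several-fold.

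In the Amh-rich granulosa-like cluster 10 Rspo1 was 8.28, 9.92, 0.208 and 2.57 CPM, from 115, 128, 1 and 17 UMIs. This is under the 20 CPM filter, and the lowest value rests on 1 UMI, with an interval of 0.00526 to 1.16 CPM. The intervals of both libraries without AMH (6.83 to 9.93 and 8.28 to 11.8 CPM) lay above those of both libraries with it. Of all genes tested in cluster 10, 4.16% differed by 2-fold or more for AMH over control and 3.41% for doxorubicin+AMH over doxorubicin.

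Lgr5, on chromosome 10 from 115450311 to 115587780 on the minus strand, encodes a receptor for R-spondins. Surface epithelial-like cells numbered 108, 94, 38 and 65, under the minimum of 50 in 1 library, so they are described with their counting intervals and not counted among the 6 classes. Lgr5 was 666, 449, 169 and 121 CPM in them. The 4 libraries were ordered with control highest and AMH lowest, and both libraries with AMH were below both without it. The log2 ratio was -2.46 for AMH over control (-2.68 to -2.25), -1.41 for doxorubicin+AMH over doxorubicin (-1.72 to -1.11), -0.57 for doxorubicin over control (-0.67 to -0.47) and 0.48 for doxorubicin+AMH over AMH (0.11 to 0.84).

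The surface epithelial-like cells formed 2 clusters, and most Lgr5 UMIs were in one of them. Cluster 25, led by Lgals7 and Upk3b, had 68, 55, 36 and 30 cells and 871, 628, 182 and 197 CPM of Lgr5, which was itself among its 10 leading genes although it was not used for clustering. Cluster 29, led by C3 and Slpi, had 40, 39, 2 and 35 cells. Its Lgr5 level was 67.4 CPM in control, 134 CPM in doxorubicin and 49.6 CPM in AMH, with 2 cells and 0 UMIs in doxorubicin+AMH.

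Within cluster 25 the Lgr5 ratio was -2.15 for AMH over control (-2.39 to -1.91) and -1.79 for doxorubicin+AMH over doxorubicin (-2.10 to -1.49). For doxorubicin over control it was -0.47 (-0.57 to -0.37), and for doxorubicin+AMH over AMH -0.11 (-0.49 to 0.27). The same cluster had many other differences of that size: 9.13% of its genes tested differed by 2-fold or more for AMH over control and 8.95% for doxorubicin+AMH over doxorubicin.

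Lgr5 was also compared cell by cell in cluster 25. The median cell held 13, 11, 1 and 1.5 UMIs of Lgr5. After each cell was thinned to 2000 UMIs, 71.4%, 60%, 31.3% and 29.6% of cells had a Lgr5 UMI, with exact binomial intervals of 58.7 to 82.1%, 45.2 to 73.6%, 16.1 to 50.01% and 13.8 to 50.2%; 5, 5, 4 and 3 cells were too shallow. The unthinned shares were 89.7%, 89.1%, 63.9% and 66.7%, at median depths of 19210, 17603, 8623 and 16761.5 UMIs. In macrophage-like cells, which should lack Lgr5, 1 of 190 control cells had a UMI (0.526%), and 0 of 95, 97 and 188 cells in the other libraries, where 3 cells with a UMI would be 3.16%, 3.09% and 1.60%. Their median depths were 7232.5, 6013, 7136 and 6512 UMIs, below those of cluster 25. The cell with most Lgr5 UMIs held 7.88%, 8.22%, 16.5% and 28.8% of the cluster's Lgr5, and without that cell in each library AMH over control was -2.43. The 5 cells with most held 35.1%, 38.4%, 57.7% and 69.9%, out of 68, 55, 36 and 30 cells with 2146, 1229, 97 and 153 Lgr5 UMIs. Such a share rises with fewer cells and UMIs, so it cannot show whether Lgr5 was more concentrated in the libraries with AMH.

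Other markers in cluster 25 moved with these values. The surface epithelial markers summed to 4968.1, 4647.52, 4309.5 and 3727.44 CPM, stroma markers to 358, 406, 771 and 891 CPM, and oviduct-type epithelial markers to 1372.13, 1086.08, 739 and 619 CPM. Their part in the Lgr5 values was not tested. A gene that overlaps Lgr5 on the other strand, A930009A15Rik, was among the 3 genes most like Lgr5 across 36 sums of cells (9 classes with at least 30 cells by 4 libraries), with a Pearson correlation of 0.989. Whether strand was used in counting is not given in the sources used here, so reads of the pair cannot be told apart. Wnt5a, Rspo1, Axin2 and Lef1 also overlap an annotated antisense gene, with the same limit, and Lef1 overlaps Gm42449 on its own strand, which strand use would not resolve. The closest were Tspan1 (0.993) and Gng13 (0.992), and the surface epithelial-like sums dominate such correlations.

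**Figure D4:**
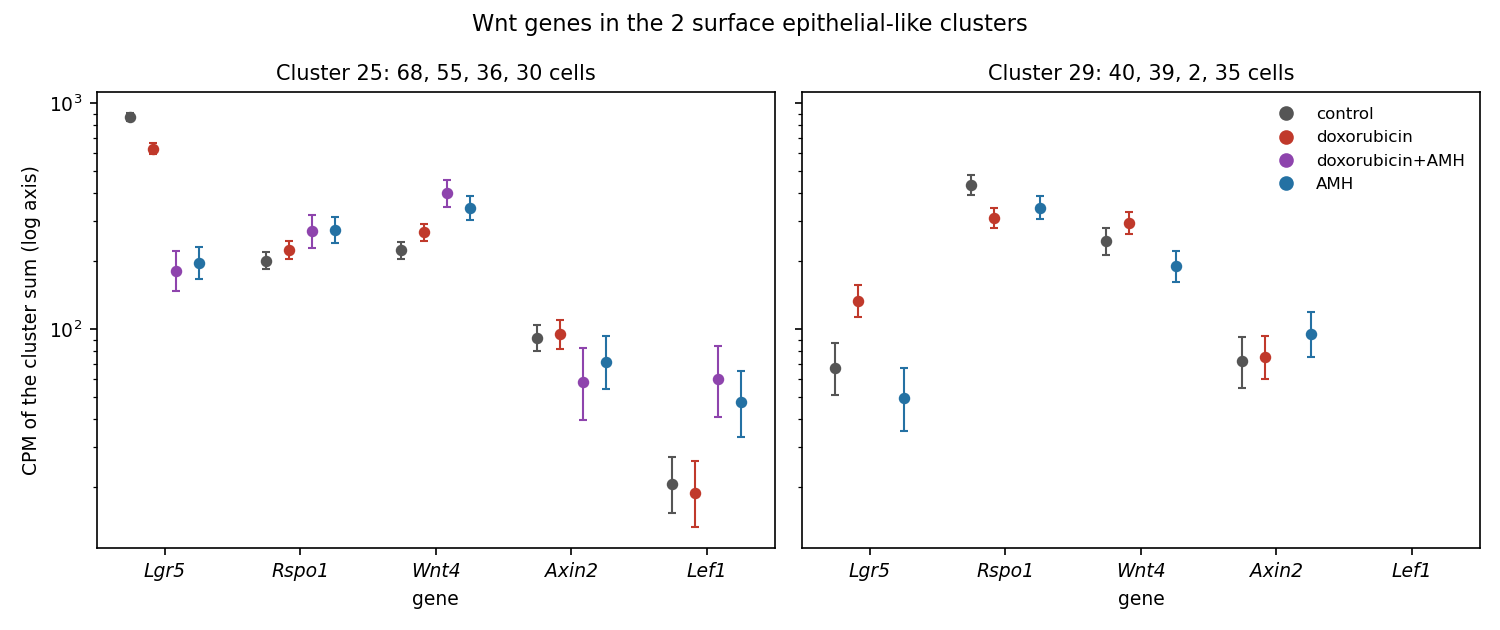
CPM (log axis) of Lgr5, Rspo1, Wnt4, Axin2 and Lef1 in the surface epithelial-like clusters 25 and 29 by library, with exact 95% Poisson intervals; the doxorubicin+AMH library has 2 cells in cluster 29 and is not drawn there, and Lef1 had 0 UMIs in cluster 29. Lgr5 in cluster 25 goes from 871 CPM in control to 182 and 197 CPM in the libraries with AMH, while Rspo1 stays between 201 and 276 CPM.

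Fzd1, on chromosome 5 from 4753839 to 4758035 on the minus strand, encodes a Frizzled receptor. It was 25.3, 20.04, 23.9 and 23.9 CPM in stroma-like cells and 21.5, 21.9, 19.2 and 21.8 CPM in mural smooth muscle-like cells. These levels differed little between libraries and between the pair of classes. The largest of its 8 ratios in these classes was -0.34 for doxorubicin over control in stroma-like cells (-0.49 to -0.19). Its highest levels were in stroma-like cluster 1, with 49.0, 41.5, 45.7 and 45.5 CPM, and in the Clec3b cluster, with 43.3, 27.9, 44.7 and 37.3 CPM. In the Clec3b cluster the doxorubicin library was again the lowest, at -0.64 to control (-1.03 to -0.25).

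Among granulosa-like cells Fzd1 was low, but in cluster 10 it was 1.73, 0.853, 6.86 and 7.71 CPM, from 24, 11, 33 and 51 UMIs. Both libraries with AMH were above both without it, with log2 ratios of 2.16 for AMH over control (1.43 to 2.92) and 3.01 for doxorubicin+AMH over doxorubicin (1.99 to 4.14). A pseudocount of 5 CPM brought these to 0.92 and 1.02, and equal cell weights put the second at 3.85. In surface epithelial-like cluster 25 it was 6.09, 4.602, 30.0 and 12.8 CPM. Both clusters lay under the 20 CPM filter for Fzd1. Of all genes that passed it in cluster 10, 4.16% differed by 2-fold or more for AMH over control and 3.41% for doxorubicin+AMH over doxorubicin.

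Sfrp1, on chromosome 8 from 23411502 to 23449632 on the plus strand, encodes a secreted protein that binds Wnt ligands. It was 160.3, 148, 139.9 and 127 CPM in stroma-like cells, 105, 93.4, 82.4 and 66.7 CPM in mural smooth muscle-like cells and 55.8, 62.5, 36.4 and 26.7 CPM in theca/luteal-like cells. The 3 classes kept this order in every library. AMH had the lowest level of Sfrp1 in each of them, with log2 ratios to control of -0.34 (-0.40 to -0.28), -0.65 (-0.78 to -0.53) and -1.06 (-1.22 to -0.91). Doxorubicin+AMH over doxorubicin was -0.08 (-0.14 to -0.02), -0.18 (-0.32 to -0.04) and -0.78 (-0.93 to -0.63). With the direct marker gate the last was -0.32, and with equal cell weights -1.10.

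The theca/luteal-like clusters differed in Sfrp1 too, and the part of their mix in the class values was not tested. Cluster 9 had 59.5, 63.3, 62.0 and 37.9 CPM. Cluster 8, which held most cells of the AMH libraries, had 16.3, 25.9, 22.3 and 20.4 CPM, from 32, 19, 531 and 717 cells. Cluster 16 had 32.1, 60.8, 66.0 and 46.8 CPM, so there AMH was above control (0.54, 0.16 to 0.93), against the sign of the class. Within stroma-like cells, cluster 0 had 268, 238, 209 and 167 CPM and cluster 1 had 186, 219, 173 and 181 CPM. AMH over control was -0.68 in cluster 0 (-0.79 to -0.58) and -0.04 in cluster 1 (-0.16 to 0.08).

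Sfrp4, on chromosome 13 from 19623104 to 19632994 on the plus strand, encodes another secreted Sfrp protein. It was highest in the Clec3b cluster, at 63.7, 76.9, 41.4 and 61.7 CPM. There doxorubicin+AMH was lowest, with a ratio of -0.89 to doxorubicin (-1.32 to -0.49) and of -0.58 to AMH (-1.01 to -0.16). Over the whole classes Sfrp4 reached 11.3 CPM at most, in theca/luteal-like cells of control.

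**Figure D5:**
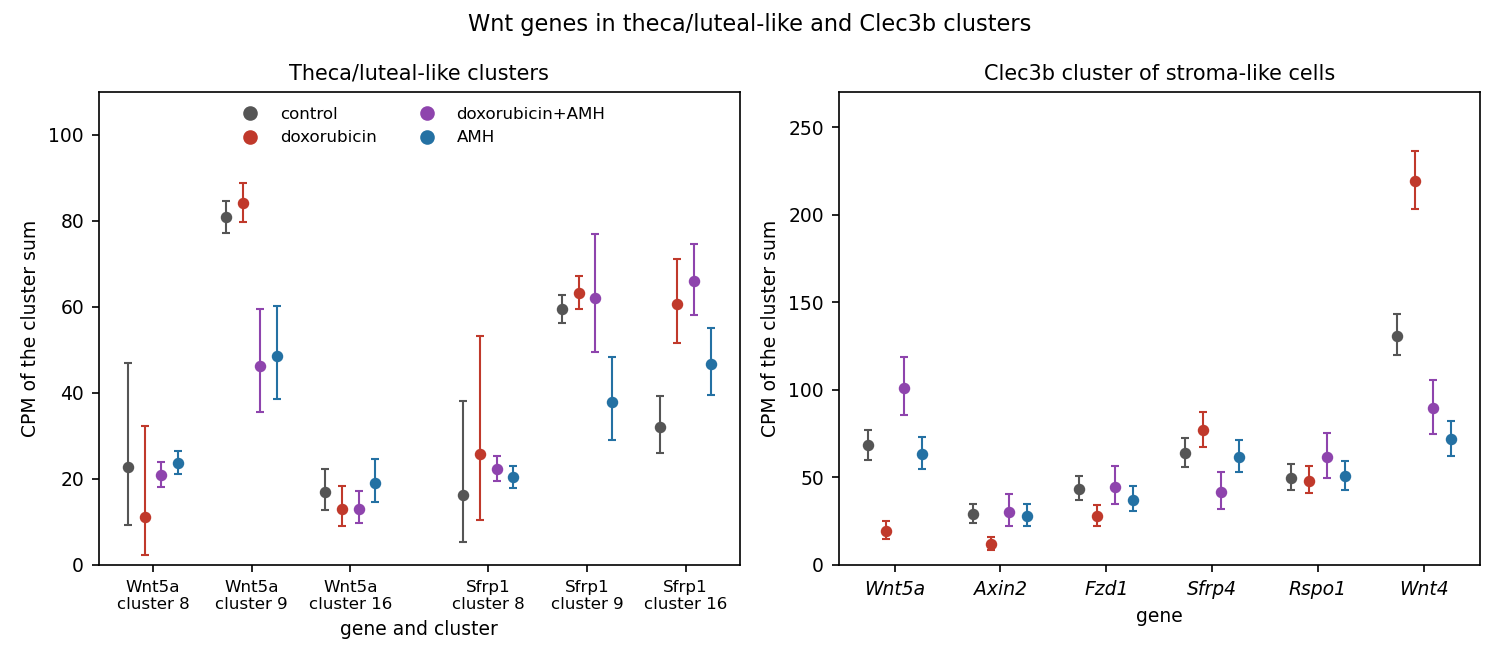
CPM of Wnt5a and Sfrp1 in the 3 theca/luteal-like clusters (left, libraries with at least 15 cells) and of 6 Wnt genes in the Clec3b cluster (right), by library, with exact 95% Poisson intervals. Wnt5a in cluster 9 is 46.3 and 48.5 CPM in the libraries with AMH and 80.9 and 84.3 CPM in the others, and in the Clec3b cluster doxorubicin is lowest for Wnt5a (19.3 CPM) and Axin2 (11.7 CPM).

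Axin2, on chromosome 11 from 108920349 to 108950783 on the plus strand, is a direct target of beta-catenin that feeds back to inhibit the pathway and is widely used as its readout. It was 86.7, 87.9, 57.3 and 84.1 CPM in surface epithelial-like cells, from 287, 270, 33 and 135 UMIs. The control, doxorubicin and AMH libraries lay close together, and doxorubicin+AMH was lower, at -0.62 to doxorubicin (-1.18 to -0.09) and -0.55 to AMH (-1.15 to 0.01). With each cell given equal weight these were -1.75 and -1.94, so their size depends on the weights. In cluster 25 Axin2 was 91.7, 95.1, 58.2 and 71.9 CPM, where Lgr5 differed much more. AMH over control was -0.35 for Axin2 there, and its interval (-0.80 to 0.08) spans 0.

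Axin2 was lower in the other classes. Theca/luteal-like cells had 10.7, 8.71, 15.7 and 19.8 CPM, with both AMH libraries above the others. Cluster 8 had 19.6, 25.9, 20.6 and 23.6 CPM, from 32, 19, 531 and 717 cells, so its control and doxorubicin values rest on few cells. Cluster 9 had 11.5, 9.46, 7.48 and 15.4 CPM. The part of the cluster mix in the class values was not tested. Granulosa-like cells had 6.57, 7.41, 5.21 and 7.25 CPM, and within them cluster 10, the cluster rich in Wnt4, had 22.3, 21.1, 18.3 and 29.2 CPM.

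In the Clec3b cluster Axin2 was 29.04, 11.7, 30.2 and 28.0 CPM, from 108, 37, 46 and 84 UMIs. Doxorubicin stood below the other three, as for Wnt5a in the same cells, with ratios of -1.31 for doxorubicin over control (-1.89 to -0.76) and 1.37 for doxorubicin+AMH over doxorubicin (0.71 to 2.03). Of the 7 Wnt genes that passed the filter in this cluster, Wnt5a and Axin2 were at least 2-fold lower for doxorubicin over control, where 5.48% of all genes tested differed by that size. For doxorubicin+AMH over doxorubicin, Wnt5a and Axin2 were at least 2-fold higher and Wnt4 at least 2-fold lower (-1.30, -1.57 to -1.03), against 7.27% of all genes. Both comparisons share the doxorubicin library. The stroma markers of the cluster summed to 23201, 20641.2, 15548.8 and 19932.3 CPM, and their part was not tested. The part of the oviduct-type epithelial-like cells (145, 1, 49 and 238), also fewest in doxorubicin, was not tested either.

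Lef1, on chromosome 3 from 131110471 to 131224356 on the plus strand, encodes a DNA-binding partner of beta-catenin that is also known in lymphocytes. In blood endothelial-like cells it was 52.1, 74.0, 70.2 and 63.3 CPM, from 195, 184, 79 and 152 UMIs. Control was lowest, and doxorubicin over control was 0.50 (0.21 to 0.80), while the intervals of the other 3 ratios spanned 0. Doxorubicin+AMH over AMH was 0.15, and 0.88 with equal cell weights, and AMH over control was 0.28, and -0.10 with doublets left in. In lymphatic endothelial-like cells 0 Lef1 UMIs were seen in all 4 libraries; a limit of 3 UMIs stands at 1.246, 4.94, 3.40 and 2.43 CPM. The blood endothelial-like level lay above that limit in each library. T or NK lymphocyte-like cells had 200.3, 107, 162 and 81.1 CPM of Lef1 in 66, 26, 63 and 46 cells, too few to compare.

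Among surface epithelial-like cells, cluster 25 had 20.7, 18.9, 60.04 and 47.5 CPM of Lef1, from 51, 37, 32 and 37 UMIs. Cluster 29 had 0 UMIs in each library, and 3 UMIs would be 3.55, 2.69 and 3.63 CPM in control, doxorubicin and AMH. Few cells carried it: the 5 cells with most Lef1 held 43.1%, 56.8%, 59.4% and 86.5% of its UMIs in cluster 25. The ratio of 1.20 for AMH over control (0.55 to 1.84) became -0.14 when each cell had the same weight. Doxorubicin+AMH over doxorubicin was 1.67 (0.94 to 2.39), and 2.17 with equal weights. In the other 5 classes with at least 50 cells per library Lef1 stayed at or under 1.27 CPM.

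Some pairs of the 9 genes followed each other over the 36 sums. The Pearson correlation was 0.953 for Rspo1 and Lgr5, 0.890 for Rspo1 and Axin2 and 0.809 for Sfrp1 and Sfrp4. These sums come from 9 classes in 4 libraries and are not independent, and variation between classes and between libraries was not separated. The gene most like Wnt4 over 24 sums of the 6 larger classes was Tgfa (0.946), and for Wnt5a it was Wasf3 (0.953). For Fzd1 it was Olfml1 (0.982), for Sfrp1 Col6a1 (0.980) and for Lef1 Tie1 (0.998), which encodes an endothelial receptor. For Rspo1 the most alike over 36 sums was Adgrg2 (0.979), and for Axin2 it was Klf5 (0.949), while Sfrp4 was below 20 CPM in every sum.

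A list of 94 other genes of the pathway gives the surroundings of the 9. The filter was passed by 26 in granulosa-like cells, 30 in theca/luteal-like cells and 35 in stroma-like cells. In mural smooth muscle-like cells 36 passed, in blood endothelial-like cells 32 and in macrophage-like cells 19. Mural smooth muscle-like cells had 2 of their 36 at least 2-fold lower for doxorubicin over control, where 0.651% of all genes tested passed 2-fold, and 1 for doxorubicin+AMH over AMH, where 0.576% did. Cluster 15 of that class, with Rspo3 of the list among its leading genes, had 205, 19, 57 and 180 cells. Its part in these counts was not tested. In granulosa-like, stroma-like, blood endothelial-like and macrophage-like cells 0 of the listed genes differed by 2-fold or more in any of the 4 contrasts. Of all genes tested, 0.209%, 0.194%, 0.284% and 0.343% passed 2-fold in stroma-like cells (doxorubicin over control, doxorubicin+AMH over AMH, AMH over control, doxorubicin+AMH over doxorubicin). In the same order the shares were 0.436%, 1.57%, 1.83% and 1.75% in blood endothelial-like cells and 3.82%, 4.09%, 1.82% and 5.07% in macrophage-like cells, and those of granulosa-like cells, given above, were under 1%. With so few listed genes, a count of 0 is near the share of all genes in these classes. In the first 2 of these classes the medians of the list ran from -0.12 to 0.00, beside -0.07 to 0.02 for all genes tested. In blood endothelial-like cells they ran from -0.07 to -0.03. In macrophage-like cells the median was -0.25 for doxorubicin+AMH over AMH and -0.21 for doxorubicin+AMH over doxorubicin, beside -0.01 and -0.04 for all genes, and -0.06 and -0.03 in the other contrasts. The genes of highest level in granulosa-like cells were Tcf7l2, a nuclear partner of beta-catenin (365, 316, 295 and 357 CPM), and the kinases Csnk1a1 (317, 299, 281 and 295 CPM) and Gsk3b (191, 177, 172 and 187 CPM), which act on beta-catenin.

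In theca/luteal-like cells 1 of the 30 was at least 2-fold higher and 1 at least 2-fold lower in both contrasts with AMH, and 0 in the contrasts of doxorubicin. Of all genes tested in that class 6.65% and 6.53% passed 2-fold in the contrasts with AMH, so the listed genes' count was near the share of all genes. The first was Ror1, a co-receptor of Wnt5a, at 27.7, 31.7, 99.5 and 97.3 CPM. The second was the ligand Wnt6, at 141, 163, 74.0 and 52.4 CPM. Both genes were named because they passed 2-fold in these contrasts, so the gap between libraries with and without AMH follows from that choice. The clusters that held most cells of the class also differed between these libraries.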

How the data were processed

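Single-cell 3′ RNA libraries of mouse ovary were measured in 4 groups, 1 library each, of 7141 to 9478 deposited cells. The deposited values are UMI counts per gene and cell, made by the authors with Cell Ranger 7.0.0, per the file headers. The submitters' processing notes name mm10, R 4.2.0 and Seurat 4.1.0 without their roles; the annotation, intron counting and strand use are not given in the sources used here. Gene positions come from GENCODE M21 (mm10).

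Cells under 1000 UMIs or over 20% mitochondrial UMIs were left out, and doublets were removed by Scrublet score at 0.8% per 1000 cells (677, 408, 489 and 719 cells; its automatic threshold marked 194, 0, 1 and 0). Of 28451 cells, 32 clusters were made (2000 variable genes without the Wnt lists, 30 components, 20 neighbours, Leiden resolution 1.0) with Python 3.11.15, scanpy 1.11.5 and leidenalg 0.10.2. A class name needed at least 3 markers and 60% of its list. The theca and luteal lists were merged after seeing the data.

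Counts were summed per library and class or cluster, and ratios are log2 CPM with exact conditional-binomial 95% intervals (scipy 1.17.1), which cover counting error only. No test between groups was made, each being 1 library. Genes were named by the fixed list of 9, by a 2-fold difference at a mean of at least 20 CPM, as the highest in the pathway list, or as most alike by Pearson correlation. The ratio step was tested on simulated counts. The members and lists were chosen with earlier results of these data known. Alternatives covered filters, pseudocount, fold, scaling, cell weights, resolution and a direct marker gate. No promoter or protein sequence is printed. One leading gene of a stroma-like cluster is not reported here.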

Additional observations from a re-analysis of the deposited data

Results flagged for a closer look

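Wnt4 in granulosa-like cells was picked out because its doxorubicin contrast had opposite signs without and with AMH. The log2 ratio was 0.57 for doxorubicin over control (72.2 and 108 CPM in control and doxorubicin) and -0.48 for doxorubicin+AMH over AMH (53.0 and 38.1 CPM in AMH and doxorubicin+AMH). The difference between these ratios was not tested, since each group is 1 library. Macrophage-like cells had 20.5, 7.78, 11.4 and 26.4 CPM of Wnt4, and the part of this background was not tested.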

How the results depend on the processing

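Of 748 recomputed values for 88 ratios, 666 stayed within the interval of the reported value, 82 fell outside it, 42 changed sign and 8 moved by over 1.5-fold. The pairs past 2-fold for AMH over control numbered 1 with a pseudocount of 5 CPM and 1 with a direct marker gate, against 2 as reported. There, Sfrp1 in theca/luteal-like cells was -0.94 and -0.83. With a filter of 5 CPM, 27 pairs were tested, and 3 were past 2-fold for doxorubicin over control (2.79% of all pairs), 2 for doxorubicin+AMH over AMH (3.27%), 3 for AMH over control (3.63%) and 3 for doxorubicin+AMH over doxorubicin (5.19%). With a fold of 1.5, 2 pairs passed for doxorubicin over control (3.44% of all pairs), 0 for doxorubicin+AMH over AMH (4.59%), 3 for AMH over control (6.55%) and 3 for doxorubicin+AMH over doxorubicin (8.5%). With equal cell weights 3 of 12 pairs passed 2-fold for doxorubicin+AMH over doxorubicin (4.09%), the third being Sfrp1 in theca/luteal-like cells. Lef1 in cluster 25, AMH over control, turned to -0.14 when each cell had equal weight. Wnt4 in granulosa-like cells, doxorubicin+AMH over doxorubicin, ranged from -1.98 to -1.24. No paired analysis was possible because each group has 1 library, and for the same reason no replicate could be left out. The cause of these changes was not tested. The depth limits values under 20 CPM and clusters of few cells.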
